A study of Mus musculus with 21 samples.

Results

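The genes described here are the hedgehog ligand Shh, the receptor Ptch1, the transducer Smo, the coreceptors Gas1, Cdon and Boc, the ligand-binding inhibitor Hhip, and the transcription factors Gli1, Gli2 and Gli3. They are 10 of the 18193 genes tested, and were picked by gene symbol. They are read by 26 of 34945 probe sets with a single symbol, and 9 of the 10 genes have several. Where a gene has several, the one that varied most (largest SD) over the 21 arrays is given, a choice that does not use the groups.

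Neurons were derived from mouse embryonic stem cells, purified as post-mitotic cells and profiled on Affymetrix arrays, with 3 biological replicates in each of 7 groups. In the engineered lines, named NesE for a nestin enhancer that is active in neural progenitors, the driven factor was Lmx1a, Nkx2.2 or Olig2. The Lmx1a line received SHH and FGF8 and was taken at day 14 and at day 10. The Nkx2.2 line, at day 10, received SHH with FGF8 or, in another group, SHH with retinoic acid (RA). The Olig2 line received SHH and RA and was taken at day 8. One wild type group, taken at day 10, had FGF8 and the other, taken at day 8, had RA. For both the sample titles list SHH too, but the source names leave it out, and the sample descriptions call the neurons dorsal (of midbrain with FGF8, of hindbrain with RA). Should the wild type have had no SHH, the effect of SHH cannot be told apart from that of the line wherever a line is set against it. The question asked of the 10 genes is how they differ between groups whose SHH labels do and do not conflict.

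SHH binds Ptch1 with the help of Gas1, Cdon and Boc, which relieves the block that Ptch1 puts on Smo. Smo then acts through the primary cilium to turn Gli2 and Gli3 from repressors into activators. In the neural tube Gli1, Ptch1 and Hhip are transcribed in response to the signal, Gas1, Cdon and Boc are lowered by it, and the floor plate makes SHH of its own under Foxa2.

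The promoter windows of Gli2, Gli3 and Gas1 are shown because these genes were high and low on largely the same arrays. The sequences are from RefSeq on GRCm38.p6, 5′ to 3′ on the strand of the gene, from 250 bases before the annotated start to 50 bases after it. Gli2 lies at chr1:119053570-119053869 on the minus strand, Gli3 at chr13:15463473-15463772 on the plus strand and Gas1 at chr13:60177486-60177785 on the minus strand. Capitals mark a match to ACCACCC, the core of the Gli motif, which here reads on the opposite strand as its reverse complement.
Gli2: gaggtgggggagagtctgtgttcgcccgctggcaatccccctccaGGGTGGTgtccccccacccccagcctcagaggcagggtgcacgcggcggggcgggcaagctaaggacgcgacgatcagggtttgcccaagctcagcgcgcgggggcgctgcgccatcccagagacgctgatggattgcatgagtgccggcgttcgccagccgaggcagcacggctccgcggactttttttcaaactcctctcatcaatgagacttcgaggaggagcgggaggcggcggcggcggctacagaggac
Gli3: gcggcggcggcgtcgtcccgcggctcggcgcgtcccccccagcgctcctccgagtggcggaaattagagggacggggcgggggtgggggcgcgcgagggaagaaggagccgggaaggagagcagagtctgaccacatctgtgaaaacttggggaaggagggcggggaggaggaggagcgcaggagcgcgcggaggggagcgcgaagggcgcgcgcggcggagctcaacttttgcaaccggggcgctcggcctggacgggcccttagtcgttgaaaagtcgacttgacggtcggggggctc
Gas1: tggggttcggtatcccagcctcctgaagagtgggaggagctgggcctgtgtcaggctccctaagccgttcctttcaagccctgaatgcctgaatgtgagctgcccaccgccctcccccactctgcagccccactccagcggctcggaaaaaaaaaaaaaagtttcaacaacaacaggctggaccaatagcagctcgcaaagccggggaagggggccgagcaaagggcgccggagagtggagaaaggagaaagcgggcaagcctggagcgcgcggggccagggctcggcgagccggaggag
The GC content was 67.3% in the Gli2 window, 71% in that of Gli3 and 62.3% in that of Gas1, against a median of 52.7% over all 32851 windows. They hold 28, 39 and 17 CpG dinucleotides in the same order, against a median of 7. Windows were found for 7 of the 10 genes, the others being Shh, Gli1 and Boc. On either strand the 9-base Gli consensus GACCACCCA was in 0 of these 7 windows and in 0.253% of all windows. Its 7-base core ACCACCC was in 1 of the 7, at position -205 of Gli2, and in 4.61% of all windows. A match is a run of letters and was not tested as a binding site.

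All values below are log2 signals that were centred per probe set before deposit, so a value is a deviation from that gene's own baseline. Differences between groups can be read from it, and levels of different genes cannot be compared. A gene is called at an adjusted p under 0.05 in limma, adjusted over all genes by the Benjamini-Hochberg method, with a log2 fold change of 1 or more in size. The error of a fold change is a standard error from 1 variance per gene over all 21 arrays. Where groups differ in spread, this error is too large for some comparisons and too small for others. The number of arrays limits the precision, and in bulk RNA fewer cells of a type and less RNA per cell cannot be told apart.

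The labels held for the driven factors, since Lmx1a averaged 9.08 ± 0.21 and 8.19 ± 0.13 in its line at day 14 and day 10, against 2.62 ± 0.62 in the FGF8 wild type (SD, n = 3 each). Olig2 averaged 4.44 ± 0.73 in its line, against -0.20 ± 0.04 in the RA wild type. With FGF8, Nkx2-2 averaged 0.72 ± 0.52 in its line and -1.54 ± 0.74 in wild type cells, and with RA 1.64 ± 0.20 in its line and -0.97 ± 0.20 in wild type cells. The mean of 12 neuron genes was -0.86, -0.52 and -0.90 in the day 14 Lmx1a line, while the FGF8 wild type had 0.15, 0.45 and 0.15. Of the 12, 3 were called lower there, where 9.82% of all genes were called either way. The neuron mean was -0.74, -0.76 and -1.13 in the Nkx2.2 line with RA, while the RA wild type had 0.09, -0.03 and 0.13. In that comparison 5 were called lower, beside 18% of all genes called either way. The mean of 7 astroglia genes was 0.58, 0.45 and 0.86 in the day 14 Lmx1a line and 1.18, 0.17 and 0.62 in the Nkx2.2 line with FGF8, while the FGF8 wild type had -0.96, -0.96 and -1.17. Under RA this mean was 1.18, 1.21 and 1.35 in the Nkx2.2 line, while the RA wild type had -0.02, 0.38 and 1.04. The part of neuron or astroglia content in the results was not tested. Signals of the bioC hybridization control split the arrays into 9 of batch A and 12 of batch B, a split inferred from the controls. In batch A were the day 10 Lmx1a arrays and, from the day 14 Lmx1a, Olig2 and FGF8 wild type groups, replicates 1 and 2.

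Shh, the ligand, was high in the Lmx1a and Nkx2.2 lines and low in the Olig2 line. In the Lmx1a line it was at 3.18, 2.28 and 2.90 at day 14 and at 3.49, 2.03 and 1.84 at day 10. In the Nkx2.2 line it was at 0.98, 0.17 and 0.46 with FGF8, and the FGF8 wild type had -0.48, -1.95 and -2.50. Every array of these lines lay above every FGF8 wild type array. With RA, Shh was at -2.06, -2.47 and -2.87 in the Olig2 line and at 1.11, 1.83 and 2.75 in the Nkx2.2 line, against -2.95, -2.30 and 0.49 in the RA wild type. The Olig2 arrays thus lay inside the wild type range, and the Nkx2.2 arrays above it. In order of their means the groups were the Lmx1a line at day 14 and day 10, the Nkx2.2 line with RA and with FGF8, the RA wild type, the FGF8 wild type and the Olig2 line. The arrays of neighbours in this order overlapped, apart from the Nkx2.2 line with RA and with FGF8.

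Against its wild type Shh rose by 4.43 ± 0.75 in the Lmx1a line at day 14 (adjusted p = 0.000844), by 4.10 ± 0.75 at day 10 (adjusted p = 0.00524) and by 3.48 ± 0.75 in the Nkx2.2 line with RA (adjusted p = 0.0026). In the Nkx2.2 line with FGF8 the difference of 2.18 ± 0.75 was not called (adjusted p = 0.106). The second Shh probe set, 1436869_at, gave 1.78 ± 0.30 in that comparison and was called (adjusted p = 0.00183). In the Olig2 line the difference was -0.88 ± 0.75 (adjusted p = 0.556), and the second probe set fell by 2.12 ± 0.30 (adjusted p = 0.000215). On that probe set the Olig2 arrays were at -2.34, -2.48 and -2.07 and the RA wild type arrays at -0.77, 0.23 and -0.00, without overlap. The probe sets correlated at 0.903 over the 21 arrays.

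**Figure D1:**
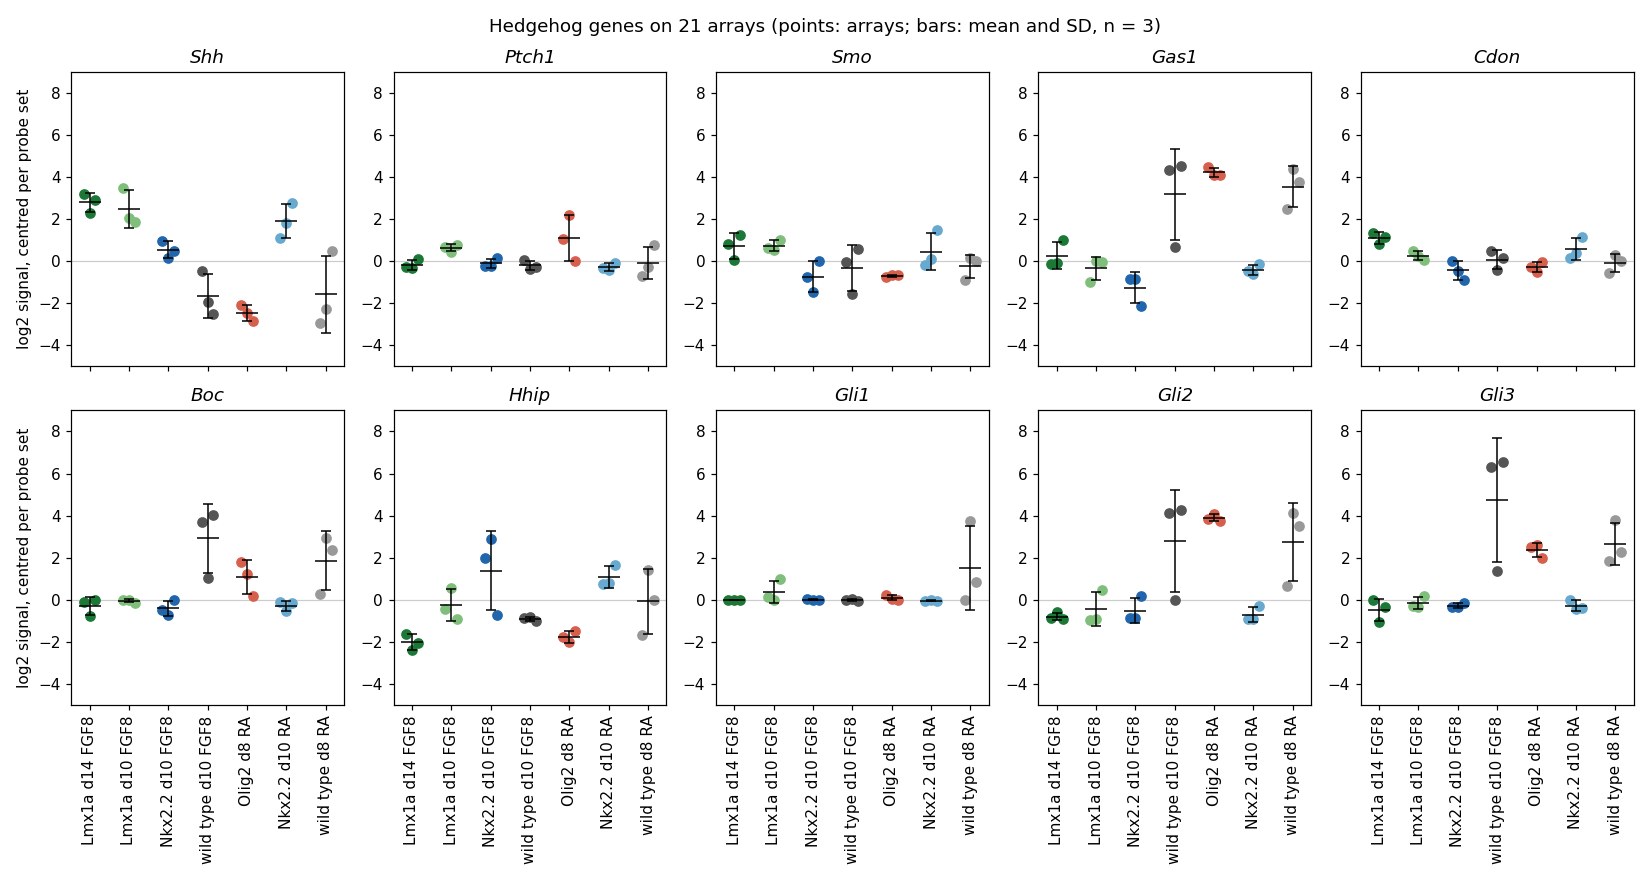
Log2 signal of the 10 genes, centred per probe set (vertical axis, log2 units), in each of the 7 groups (horizontal axis). Points are arrays, and bars give the mean and SD (n = 3). Shh was high in the Lmx1a and Nkx2.2 lines. Gas1, Boc, Gli2 and Gli3 were high in both wild type groups and the Olig2 line. Exceptions were single wild type arrays and, for Boc, an Olig2 array at 0.20.

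Gas1, Boc, Gli2 and Gli3 had the opposite pattern to Shh. By group mean they were low in the Lmx1a and Nkx2.2 lines and high in the wild type groups. They were also high in the Olig2 line, whose labels agree that it received SHH. Gas1, a membrane-anchored coreceptor, was at -0.13, -0.11 and 1.00 in the Lmx1a line at day 14 and at -0.99, 0.00 and -0.05 at day 10. It was at -0.83, -0.87 and -2.12 in the Nkx2.2 line with FGF8, against 4.32, 0.67 and 4.53 in the FGF8 wild type. With RA, Gas1 was at 4.47, 4.10 and 4.10 in the Olig2 line and at -0.49, -0.63 and -0.15 in the Nkx2.2 line, against 2.47, 4.40 and 3.74 in the RA wild type. The Olig2 arrays lay among or just above those of the RA wild type, and the Nkx2.2 arrays were all lower.

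Boc, an immunoglobulin superfamily coreceptor that is also used in axon guidance, was at -0.10, -0.79 and 0.00 in the Lmx1a line at day 14 and at -0.00, 0.00 and -0.14 at day 10. It was at -0.49, -0.70 and -0.01 in the Nkx2.2 line with FGF8, against 3.71, 1.04 and 4.01 in the FGF8 wild type. With RA it was at 1.79, 1.24 and 0.20 in the Olig2 line and at -0.13, -0.55 and -0.16 in the Nkx2.2 line, against 0.26, 2.94 and 2.37 in the RA wild type. All Lmx1a and Nkx2.2 arrays lay below their wild type, and the Olig2 arrays overlapped with it.

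Gli2, the main activator among the Gli factors, was at -0.89, -0.60 and -0.92 in the Lmx1a line at day 14 and at -0.95, -0.89 and 0.47 at day 10. It was at -0.88, -0.85 and 0.16 in the Nkx2.2 line with FGF8, against 4.13, 0.00 and 4.29 in the FGF8 wild type. With RA it was at 3.86, 4.07 and 3.76 in the Olig2 line and at -0.91, -0.93 and -0.30 in the Nkx2.2 line, against 0.63, 4.12 and 3.50 in the RA wild type. The Olig2 arrays were close together and within the wild type range, which replicate 1 of the RA wild type extended downwards. Gli3, the main repressor, was at -0.02, -1.04 and -0.36 in the Lmx1a line at day 14 and at -0.29, -0.35 and 0.17 at day 10. It was at -0.33, -0.35 and -0.16 in the Nkx2.2 line with FGF8, against 6.32, 1.36 and 6.56 in the FGF8 wild type. With RA it was at 2.51, 2.59 and 2.01 in the Olig2 line and at 0.00, -0.46 and -0.38 in the Nkx2.2 line, against 1.86, 3.80 and 2.28 in the RA wild type. The wild type and Olig2 arrays were above 1 without exception, and no Lmx1a or Nkx2.2 array exceeded 0.17.

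In the Lmx1a line at day 14, 6 of the 10 genes were called against the FGF8 wild type, where 9.82% of all genes were called. Beside Shh, Cdon rose by 1.03 ± 0.30 (adjusted p = 0.0325). Gli3 fell by 5.22 ± 0.95 (adjusted p = 0.00137), Boc fell by 3.22 ± 0.71 (adjusted p = 0.00591), Gli2 fell by 3.61 ± 0.97 (adjusted p = 0.0192) and Gas1 fell by 2.92 ± 0.79 (adjusted p = 0.0203). Line and day cannot be told apart here, since the wild type was taken at day 10. At day 10 the called genes were 4 of 10 against 3.31% of all genes, with Gli3, Gas1 and Boc lower. Gli2 at -3.26 ± 0.97 was not called there (adjusted p = 0.0708). Within batch A, which leaves 2 wild type arrays, the day 10 differences were 3.67 for Shh, -4.00 for Gli3, -2.84 for Gas1 and -2.42 for Boc, and 0 of the 10 were called (adjusted p = 0.0512 to 0.252 for these genes). Within batch A at day 14, 1 was called, Shh at 3.95 (adjusted p = 0.0272). Without replicate 1 of the Lmx1a line at day 10, or replicate 1 or 3 of the wild type, 2 of the 4 calls at day 10 were left, Gli3 and Shh. At day 14, 3 calls were left, Boc, Gli3 and Shh, without replicate 1 of the line or replicate 3 of the wild type.

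With FGF8, 3 of the 10 genes were called in the Nkx2.2 line against the FGF8 wild type, where 4.53% of all genes were called, and all 3 were lower, as were 1.71% of all genes. They were Gli3, Gas1 and Boc, and Gli2 at -3.33 ± 0.97 was not called (adjusted p = 0.0510). Within batch B, where the wild type has a single array, the differences were -6.84 for Gli3, -5.80 for Gas1 and -4.42 for Boc, and all 3 were called. The call of Boc was lost without replicate 1 or replicate 3 of the wild type. With RA, 5 of the 10 were called in the Nkx2.2 line at day 10 against the RA wild type at day 8, where 18% of all genes were called. Beside Shh, Gas1 fell by 3.96 ± 0.79 (adjusted p = 0.00138), Gli2 fell by 3.47 ± 0.97 (adjusted p = 0.0134), Gli3 fell by 2.92 ± 0.95 (adjusted p = 0.0306) and Boc fell by 2.13 ± 0.71 (adjusted p = 0.035). All arrays of this comparison were in batch B, and line and day cannot be told apart. Fitted within batch B, 4 were called, and Boc at -2.13 was not (adjusted p = 0.0573). Without replicate 2 of the RA wild type 2 calls were left, Gas1 and Shh, and without any one array of the Nkx2.2 line or replicate 3 of the wild type 3 were left. The 2 Nkx2.2 groups did not differ on the main probe set of any of the 10 genes past the threshold. That comparison called 4.31% of all genes and gave 2 of the 10 an unadjusted p under 0.05. On the second Shh probe set the arrays ran from -0.16 to 0.41 with FGF8 and from 0.90 to 1.54 with RA, without overlap. The difference between the Nkx2.2 line's changes with FGF8 and with RA was called for 0 of the 10 as well, against 4.38% of all genes, and Cdon had an unadjusted p under 0.05. That difference was -2.10 ± 1.34 for Gli3 (adjusted p = 0.468) and -1.17 ± 0.43 for Cdon (adjusted p = 0.131).

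**Figure D2:**
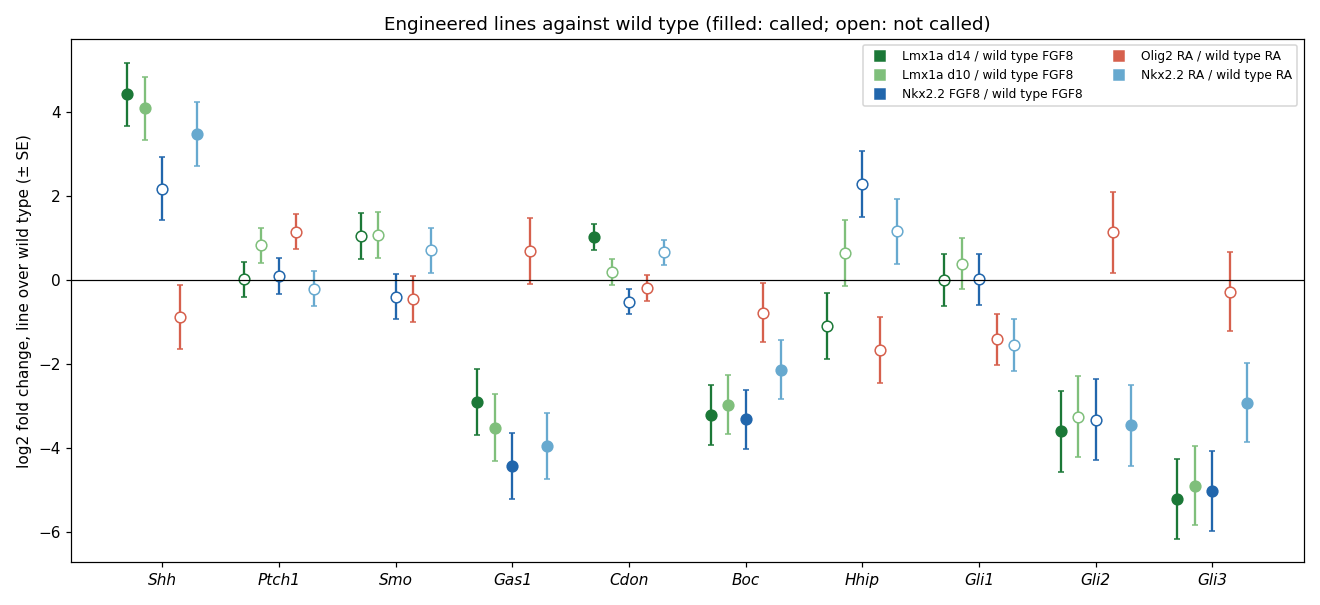
Log2 fold change with its standard error (vertical axis) of each of the 10 genes (horizontal axis) in the 5 comparisons of an engineered line with its wild type group, with 3 arrays a group. Filled points passed the threshold and open points did not. Gas1, Boc, Gli2 and Gli3 lay below 0 in all 4 comparisons of the Lmx1a and Nkx2.2 lines, and the Olig2 line had no filled point.

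In the Olig2 line 0 of the 10 genes were called against the RA wild type in limma, both at day 8, although 10.4% of all genes were called. An unadjusted p under 0.05 was reached by 3 of the 10, Gli1, Hhip and Ptch1. The arrays of the groups overlapped for each of the 10, whereas they did not overlap for 61.7% of all genes. A lack of overlap takes no account of the size of a difference. Of the 12 neuron genes, for example, 7 did not overlap here and 8 were not called. The differences were 0.69 ± 0.79 for Gas1 (adjusted p = 0.581), -0.78 ± 0.71 for Boc (adjusted p = 0.556), 1.14 ± 0.97 for Gli2 (adjusted p = 0.553) and -0.28 ± 0.95 for Gli3 (adjusted p = 0.864). With standard errors of this size a difference of 1 log2 unit was not detectable for these genes. Within batch B, where the Olig2 line has a single array, 0 were called as well. Without replicate 3 of the Olig2 line or replicate 3 of the wild type Ptch1 was called, and without replicate 1 of the wild type Gli1 was.

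The Olig2 line at day 8 and the Nkx2.2 line at day 10, both labelled with SHH and RA, differed on 5 of the 10 genes, in a comparison that called 13.1% of all genes. Gas1 was higher in the Olig2 line by 4.65 ± 0.79 (adjusted p = 0.000549), Gli2 by 4.61 ± 0.97 (adjusted p = 0.00277) and Ptch1 by 1.36 ± 0.42 (adjusted p = 0.0305). Shh fell by 4.37 ± 0.75 relative to the Nkx2.2 line (adjusted p = 0.00063) and Hhip fell by 2.84 ± 0.79 (adjusted p = 0.017). Gli3, at 2.65 ± 0.95, was not called (adjusted p = 0.0612). Its standard error shares 1 variance with the FGF8 wild type, where the SD of Gli3 was 2.93. That SD was 0.32 in the Olig2 line and 0.24 in the Nkx2.2 line with RA. The arrays of the groups did not overlap for any of the 10, against 50.5% of all genes. This takes no account of size, and Gli1 was among them at 0.14 ± 0.61, which was not called. Line and day cannot be told apart, and with the batch as a block Ptch1 (adjusted p = 0.177) and Hhip (adjusted p = 0.063) were not called. Within batch B, where the Olig2 line has a single array, only Gas1 was called, at 4.53 (adjusted p = 0.02), with Gli2 at 4.47 (adjusted p = 0.0876) and Shh at -4.76 (adjusted p = 0.0796). Without replicate 1 or replicate 2 of the Olig2 line Gas1, Gli2 and Shh were called.

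Gli1, Ptch1 and Hhip, the genes commonly read as a response to SHH, were called on their main probe sets in none of the 5 comparisons of a line with its wild type. Gli1, a Gli factor that acts as an activator, has 1 probe set and was near 0 on most arrays. Since the values are centred, a signal at background cannot be told apart there from an unchanged level. It was at -0.03, -0.02 and -0.01 in the Lmx1a line at day 14, at 0.12, 0.00 and 0.98 at day 10 and at 0.02, -0.00 and -0.04 in the Nkx2.2 line with FGF8, against -0.02, 0.02 and -0.07 in the FGF8 wild type. With RA it was at 0.23, 0.05 and 0.01 in the Olig2 line and at -0.04, -0.03 and -0.05 in the Nkx2.2 line, against -0.03, 3.75 and 0.83 in the RA wild type. It stood clearly above 0 on replicates 2 and 3 of the RA wild type and replicate 3 of the Lmx1a line at day 10. Its differences from that wild type were -1.42 ± 0.61 in the Olig2 line (adjusted p = 0.140) and -1.55 ± 0.61 in the Nkx2.2 line (adjusted p = 0.0756). Without replicate 1 of the RA wild type both were called.

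Ptch1, the receptor, was at 1.05, 2.19 and 0.00 in the Olig2 line, against -0.70, -0.30 and 0.77 in the RA wild type, a difference of 1.15 ± 0.42 (adjusted p = 0.0764). The groups overlapped. On the probe set 1428853_at, which varied less, the Olig2 arrays were at 0.89, 0.91 and 0.75 and the RA wild type arrays at -0.63, 0.48 and 0.00, without overlap, and the difference of 0.90 ± 0.31 was not called (adjusted p = 0.058). On a further Ptch1 probe set, 1439663_at, the Olig2 arrays ran from 0.38 to 0.67 and the RA wild type arrays from -0.19 to 0.00, without overlap. In the Lmx1a line at day 10 Ptch1 was at 0.67, 0.45 and 0.78, while FGF8 wild type arrays had 0.06, -0.35 and -0.29, again without overlap and not called (0.83 ± 0.42, adjusted p = 0.353). At day 14 of that line it was at -0.28, -0.33 and 0.08. On 1428853_at the day 10 Lmx1a arrays ran from 0.10 to 0.79 and the FGF8 wild type arrays from -0.92 to -0.30. On 1439663_at these ranges were 0.04 to 1.45 and -0.29 to -0.27, so the groups overlapped on neither probe set.

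Hhip, which binds SHH at the cell surface and is itself induced by it, was at -1.63, -2.37 and -2.05 in the Lmx1a line at day 14 and at -0.46, 0.58 and -0.91 at day 10. It was at 1.97, 2.88 and -0.73 in the Nkx2.2 line with FGF8, against -0.88, -0.82 and -1.02 in the FGF8 wild type. With RA it was at -1.79, -2.02 and -1.47 in the Olig2 line and at 0.75, 0.82 and 1.66 in the Nkx2.2 line, against -1.67, 1.43 and 0.00 in the RA wild type. Hhip was thus highest in the Nkx2.2 line and lowest in the Olig2 line and the day 14 Lmx1a line, with replicate 3 of the Nkx2.2 line with FGF8 apart from its group. Its other 3 probe sets correlated with this one at 0.901 to 0.938.

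Cdon, a coreceptor related to Boc, and Smo, the transducer, had narrower ranges. Cdon was at 1.32, 0.80 and 1.16 in the Lmx1a line at day 14, against 0.48, -0.41 and 0.14 in the FGF8 wild type. It was the only one of the 3 coreceptors called higher in a line against its wild type, and 11 of 19 alternatives lost this call. On the second Cdon probe set, 1421452_at, the means were 0.08 at day 14 of the Lmx1a line and 0.05 in the FGF8 wild type. The 2 probe sets correlated at 0.188. At day 10 of the Lmx1a line Cdon was at 0.47, 0.26 and 0.05 on its main probe set. The change of Cdon at day 14 relative to day 10, 0.83 ± 0.30, was not called (adjusted p = 0.117), and neither was any other of the 10, in a comparison that called 4.24% of all genes. An unadjusted p under 0.05 was reached there by 2 of the 10, Cdon and Hhip. Smo was called in no comparison. Its arrays ran from -1.56, replicate 2 of the FGF8 wild type, to 1.47, replicate 3 of the Nkx2.2 line with RA. Cdon and Smo correlated at 0.736 over the 21 arrays. Between the Lmx1a line at day 10 and the Nkx2.2 line with FGF8, 0 of the 10 were called on their main probe sets, against 5.07% of all genes. An unadjusted p under 0.05 was reached by 3 of the 10, Shh at 1.92 ± 0.75 (adjusted p = 0.141) among them. On the second Shh probe set the Lmx1a arrays ran from 1.21 to 1.59 and the Nkx2.2 arrays from -0.16 to 0.41, without overlap. All of these Lmx1a arrays were in batch A and all of these Nkx2.2 arrays in batch B, so line and batch cannot be told apart.

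The wild type arrays differed among themselves on the genes that separated them from the lines. In the FGF8 wild type replicates 1 and 3 both lay over 1 log2 unit above replicate 2 for 5 of the 10 genes, Gli2, Gli3, Gas1, Boc and Smo, against 5.74% of all genes. The same replicates lay above replicate 2 in 9 of 9 cell cycle genes, 8 of 12 neural progenitor genes, 5 of 10 dorsal and intermediate progenitor factors, 5 of 9 mesenchyme genes and 0 of 12 neuron genes. The mean of the cell cycle list was 1.86, -1.44 and 2.49 on the FGF8 wild type arrays, against which the lines ranged from -1.67 to 1.05. In the RA wild type replicates 2 and 3 both lay over 1 unit above replicate 1 for 4 of the 10, Gli2, Hhip, Gas1 and Boc, against 2.97% of all genes. There the mesenchyme list followed the same arrays in 9 of 9 genes, with means of -0.16, 3.27 and 2.48. Col1a1, for example, was at 0.37, 4.11 and 3.65. The same pattern held in 4 of 12 neural progenitor genes and 3 of 9 cell cycle genes. Gli1 was at -0.03, 3.75 and 0.83 on these arrays. The part of dividing cells, progenitors or mesenchymal cells in these values was not tested.

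With FGF8 wild type replicate 2 and RA wild type replicate 1 both left out, the arrays with the lowest cell cycle mean in their groups, the changes of the Lmx1a line at day 10 were -6.59 for Gli3, -4.77 for Gas1, -4.67 for Gli2 and -3.91 for Boc, and all were called. In the Nkx2.2 line with FGF8 they were -6.72, -5.69, -4.73 and -4.27 in the same order. This choice was made after the values were seen. In the Olig2 line against the RA wild type the same omission left Boc at -1.58 and Gli1 at -2.19, both called.

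**Figure D3:**
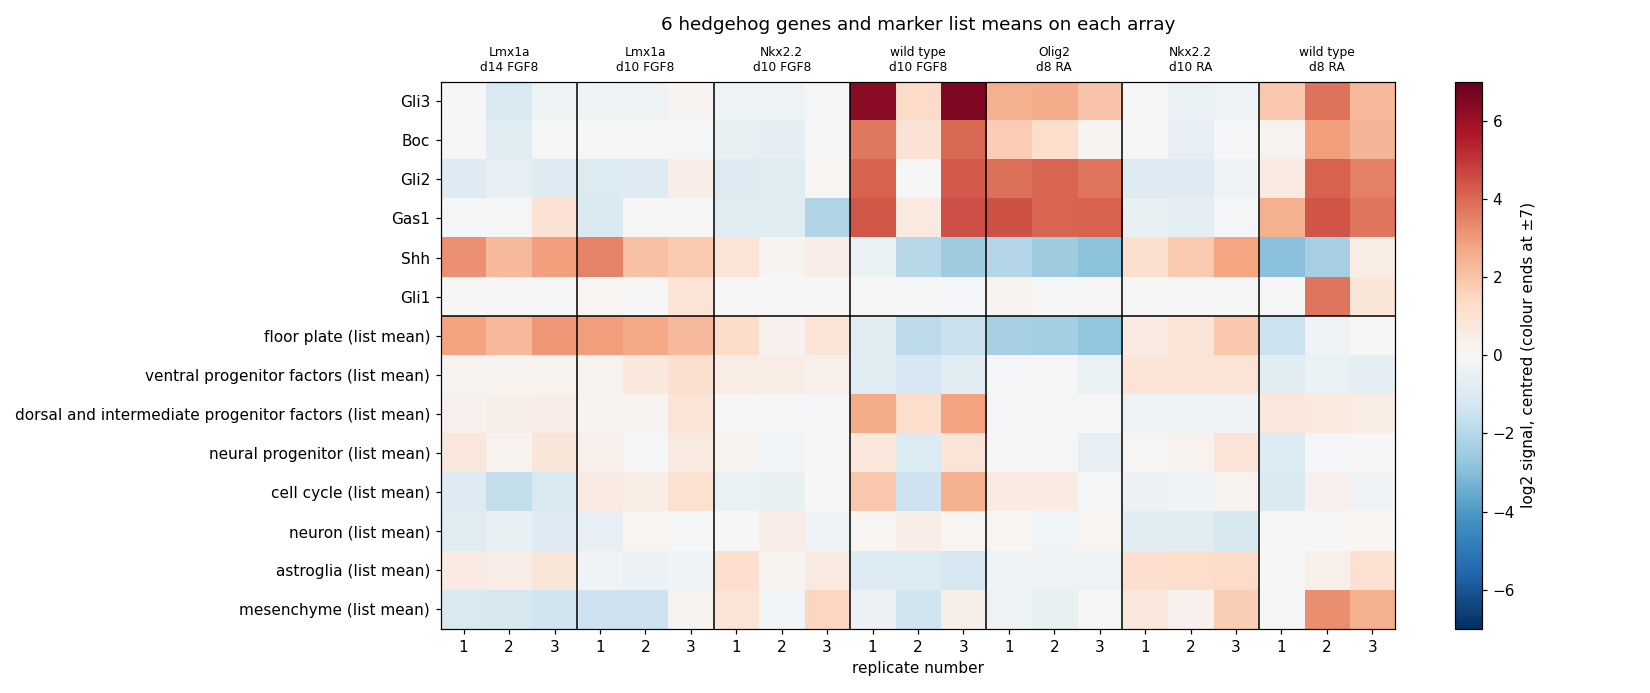
Log2 signal of 6 of the 10 genes and the mean of each marker list (rows, colour scale in log2 units, ends at ±7) on each of the 21 arrays (columns, grouped with replicate numbers). In the FGF8 wild type Gli3, Boc, Gli2 and Gas1 were lower on replicate 2, as was the cell cycle mean at -1.44. In the RA wild type Gli1 was highest on replicate 2, where the mesenchyme mean was 3.27.

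Between the wild type groups, FGF8 at day 10 and RA at day 8, 0 of the 10 genes were called in limma, against 7.4% of all genes, and Gli1 and Gli3 had an unadjusted p under 0.05. Gli3 was 2.10 ± 0.95 higher with FGF8 (adjusted p = 0.187). Another Gli3 probe set, 1450525_at, was at 3.18, 0.07 and 3.35 in the FGF8 wild type and lay near 0 on the other arrays, and its difference from the RA wild type of 2.24 ± 0.55 was called (adjusted p = 0.016). Without replicate 2 of the FGF8 wild type, Gli3 at 3.79 and Boc at 2.01 were called on their main probe sets. The second Shh probe set fell by 1.49 ± 0.30 (adjusted p = 0.00485) relative to the RA wild type.

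Over the mean of the 5 line groups against the mean of the 2 wild type groups, 5 of the 10 were called, against 7.19% of all genes. Shh rose by 2.66 ± 0.45 (adjusted p = 0.000537). Gli3 fell by 3.46 ± 0.56 (adjusted p = 0.000405), Gas1 fell by 2.87 ± 0.47 (adjusted p = 0.000426), Gli2 fell by 2.50 ± 0.57 (adjusted p = 0.00504) and Boc fell by 2.38 ± 0.42 (adjusted p = 0.000775). The arrays of lines and wild type overlapped for each of them. The mean over the lines does not stand for each line. In the Olig2 line against the RA wild type the differences were -0.88 for Shh, 0.69 for Gas1 and 1.14 for Gli2. They were -0.28 for Gli3 and -0.78 for Boc, and none of these was called.

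Over the 21 arrays Gli3 and Boc correlated at 0.952, Gli2 and Gas1 at 0.934 and Gli2 and Gli3 at 0.872, while Shh and Gli2 correlated at -0.744 and Shh and Gas1 at -0.732. These values describe 21 arrays in 7 groups, which share the group differences. The genes most like Shh by Pearson correlation were Ferd3l at 0.950, Efcab1 at 0.949, Foxa1 at 0.945, Tmem47 at 0.942 and Adamts12 at 0.939. Nearest to Gli3 after Boc were Colec12 at 0.885, Hs3st3b1 at 0.875 and Lats2 at 0.874. Nearest to Gas1 after Gli2 were Epop at 0.887, Chst15 at 0.886, Epha4 at 0.881 and Chst12 at 0.879. Nearest to Boc after Gli3 were Lats2 at 0.873, Hs3st3b1 at 0.847, Ddx3x at 0.844 and Lima1 at 0.842.

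Other genes of the pathway were taken from a list of 31, of which 30 were measured. The share of all genes called either way was 9.82% at day 14 and 3.31% at day 10 of the Lmx1a line, 4.53% and 18% in the Nkx2.2 line with FGF8 and RA, and 10.4% in the Olig2 line. In the Lmx1a line 3 rose and 4 fell at day 14, and 0 were called at day 10. The risen genes at day 14 included the glypican Gpc3, which competes for SHH (2.21 ± 0.69), and the fallen ones the ligand-release factor Scube2 (-2.51 ± 0.65). The Nkx2.2 line with FGF8 had 0 higher and 4 lower, Scube2 (-2.38 ± 0.65), Scube3 (-1.47 ± 0.36), the Gli inhibitor Sufu (-1.29 ± 0.36) and the arrestin Arrb2 (-1.44 ± 0.33). With RA it had 7 higher and 7 lower. The endocytic SHH receptor Lrp2 rose by 4.47 ± 0.85 there, with 3.73, 4.48 and 4.53 in the line, against -0.38, -0.38 and 0.10 in the wild type. The ligand-release protein Disp1 rose by 1.21 ± 0.40 and the inhibitory trafficking factor Rab23 by 1.43 ± 0.34. Sufu fell by 1.48 ± 0.36, the kinase subunit Prkaca by 1.41 ± 0.28 and Arrb2 by 2.32 ± 0.33. In the Olig2 line 2 rose, Disp1 (1.29 ± 0.40) and Rab23 (1.36 ± 0.34), and 4 fell, the ciliary inhibitor Gpr161 (-1.72 ± 0.25), Prkaca (-1.12 ± 0.28), the kinase Csnk1a1 (-1.17 ± 0.34) and Arrb1 (-1.42 ± 0.26). The median change of the list was 0.01 at day 10 and -0.02 at day 14 of the Lmx1a line, -0.05 and 0.10 in the Nkx2.2 line with FGF8 and RA, and -0.21 in the Olig2 line, against all-gene medians of 0.03, -0.03, -0.01, 0.01 and 0.04.

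Transcription factors that SHH induces or represses in the neural tube were set beside the 10 genes. Of 8 ventral progenitor factors 3 rose at day 14 and 2 at day 10 of the Lmx1a line, 4 and 5 in the Nkx2.2 line with FGF8 and RA, and 2 in the Olig2 line, where 1 fell, beside the shares of all genes given above. The Nkx2.2 line's own factor Nkx2-2 was among its 4 and its 5. Foxa1 and Foxa2, which are also in the floor plate list, rose in the Lmx1a and Nkx2.2 comparisons, and in the Olig2 line Foxa2 fell by 1.72 ± 0.51 (adjusted p = 0.0319). The Olig2 line's own factor was 1 of its 2 risen genes, and Olig1 was the other at 2.33 ± 0.45. Of 10 dorsal and intermediate factors 5 fell and 1 rose at day 14 and 6 fell at day 10 of the Lmx1a line. In the Nkx2.2 line 6 fell with FGF8 and 2 with RA, and 2 fell in the Olig2 line, where 10.4% of all genes were called, Pax6 by 3.53 ± 0.84 (adjusted p = 0.00885) and Irx3 by 1.79 ± 0.25 (adjusted p = 0.000188). The median change of these 10 factors was -1.78 at day 14 and -1.28 at day 10 of the Lmx1a line. It was -2.13 in the Nkx2.2 line with FGF8 and -0.07 with RA, and -0.03 in the Olig2 line. The wild type groups they were set against differed too, with a list mean of 2.22 with FGF8 and 0.67 with RA.

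Of 8 floor plate genes 7 rose at day 14 and 7 at day 10 of the Lmx1a line, where 9.82% and 3.31% of all genes were called. In the Nkx2.2 line 5 rose with FGF8, and 6 rose and 1 fell with RA, beside 4.53% and 18% of all genes. In the Olig2 line 4 fell, beside 10.4% of all genes. Lmx1a itself is in this list, so the driven factor was among the 7 genes of its own line and counts in the list mean. The floor plate list mean per array was 2.79, 2.31 and 3.06 at day 14 and 2.91, 2.71 and 2.28 at day 10 of the Lmx1a line, and 1.29, 0.32 and 0.96 in the Nkx2.2 line with FGF8, against -0.73, -1.85 and -1.58 in the FGF8 wild type. With RA it was -2.32, -2.38 and -2.76 in the Olig2 line and 0.58, 0.91 and 1.86 in the Nkx2.2 line, against -1.48, -0.24 and -0.02 in the RA wild type. The part of floor plate cells in the Shh values was not tested. Of 9 mesenchyme genes 3 fell in the Olig2 line and 6 were not called, where 10.4% of all genes were called. Col1a2 fell by 4.44 ± 1.22, Dcn by 3.96 ± 0.93 and Prrx1 by 2.73 ± 0.67. The mesenchyme means there were -0.38, -0.51 and -0.01.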

How the data were processed

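The deposited table holds log2 signals of 45101 probe sets, made with GCRMA per the submitters' processing notes, with no version named. RNA was labelled with biotin and hybridized to arrays, per the labels' protocols. The deposited log2 values had also been centred per probe set: no probe set has over 13 of its 21 values above 0 or over 13 under it, and in 79.2% of them a value is exactly 0. No filter on low signals was therefore possible. The 64 control probe sets were set aside, 932 with several symbols and 9160 unnamed ones were left out, and the most variable probe set stood for each gene.

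The tests used limma 3.58.1 under R 4.3.3 (lmFit over all 21 arrays, contrasts.fit, eBayes), with 14 residual and 1.11 prior degrees of freedom, in 12 comparisons. The fit was tested on simulated data with 1 variance per gene in all groups, which does not cover genes whose spread differs between groups. Benjamini-Hochberg adjustment ran over the 18193 genes of each comparison. Replicates are biological per the labels. Same-numbered arrays had a mean residual correlation of 0.00603 over 63 pairs (range -0.350 to 0.385), so the numbers were not used to pair arrays. Batches were split at a bioC mean of -1, and no batch is named in the labels.

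Named genes are the 10 genes, called members of the marker and pathway lists (at most 4 per list and comparison, all for the pathway, of which examples are given), and the 5 most correlated genes of Shh, Gli3, Gas1 and Boc. The genes and lists were chosen with earlier results of these data known. Alternatives tried were a replicate block, a batch block, fits within a batch, only the arrays compared, array weights (statmod 1.5.0; the weights did not converge), trend and robust moderation, other probe sets, their mean, array centring, a range filter, other thresholds and leaving out arrays. Arrays of 1 group in a batch fit borrow the spread of the other groups.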

Additional observations from a re-analysis of the deposited data

Results flagged for a closer look

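The Olig2 and Nkx2.2 lines under RA share the RA wild type, so the difference between their changes equals the direct comparison of the lines. It passed the threshold for 5 of the 10 genes and for 13.1% of all genes, by limma. Olig2 minus Nkx2.2 was -4.37 for Shh, 4.61 for Gli2, 1.36 for Ptch1, -2.84 for Hhip and 4.65 for Gas1. With the batch as a block Ptch1 (adjusted p = 0.177) and Hhip (adjusted p = 0.063) were not called. The lines were taken at day 8 and day 10, and line and day cannot be told apart.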

How the results depend on the processing

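Counts are of the 10 genes called. Over 28 called gene results together, 84 of 570 alternatives lost the call and 0 changed the sign, single probe sets aside. The 570 include runs without a fold threshold, which cannot lose a call. Over 92 uncalled gene results, each with several alternatives, 66 alternatives gave a call in the same direction and 1 gave one in the other. The 5 calls of all lines against all wild type were kept under each of the 31 alternatives run, again with single probe sets aside. Of these, 21 left out a single array. Fits within a batch or with only the arrays compared, under which other comparisons lost calls, were not run for this one. With only the arrays compared, 0 were called for the Lmx1a line at day 10, 2 at day 14, 0 for the Nkx2.2 line with FGF8 and 2 with RA. Within batch A the Lmx1a line had 0 at day 10 and 1 at day 14. Within batch B with a group of 1 array, 1 was called at day 14 of the Lmx1a line, 1 between wild type groups, 1 for Olig2 against Nkx2.2 and 1 for the difference between the Nkx2.2 changes with FGF8 and RA. With array weights, 6 were called for the Nkx2.2 line with FGF8, 3 for the Olig2 line, 5 between wild type groups, 1 between days of the Lmx1a line, 3 between the Nkx2.2 groups, 3 for Lmx1a against Nkx2.2 and 7 for the difference of changes. Shh between wild type groups turned to 1.53 with them. The mean of all probe sets gave 3 for the Nkx2.2 line with RA and 1 for the Olig2 line. The range filter gave 1 for the Olig2 line and 1 between the Nkx2.2 groups. Without both wild type arrays of lowest cell cycle mean, 2 were called for the Olig2 line, 2 between wild type groups and 1 for the difference of changes. The batch block gave 3 for Olig2 against Nkx2.2. With the replicate block 1 was called for Lmx1a against Nkx2.2, Smo, and no other count moved by over 1.5 times; the numbers do not pair the arrays. Of 21 arrays, 9 correlated best with one of their own number. On nearly flat probe sets the sign turned for Gli3 (0.0143) and Gas1 (0.0043) in the Nkx2.2 line with RA and for Boc in the Lmx1a line at day 10 (0.0034) and the Nkx2.2 line with RA (0.0102). Leaving out 1 array gave 3 to 5 calls at day 14 and 2 to 5 at day 10 of the Lmx1a line, 2 to 4 and 2 to 6 for the Nkx2.2 line with FGF8 and RA, 0 to 1 for the Olig2 line, 5 to 6 for all lines, 0 to 2 between wild type groups, 0 to 0 between days, 0 to 1 between the Nkx2.2 groups, 0 to 1 for Lmx1a against Nkx2.2, 3 to 5 for Olig2 against Nkx2.2 and 0 to 1 for the difference of changes. The causes were not tested.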
